A study of Mus musculus with 35 samples.

Results

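The genes described here are the 10 core genes of the MHC class I antigen presentation pathway of the mouse: the heavy chains H2-K1, H2-D1 and H2-T23, the light chain B2m, the peptide transporter and loading genes Tap1, Tap2 and Tapbp, the immunoproteasome subunits Psmb8 and Psmb9, and the transcriptional regulator Nlrc5. They were chosen by name from the 19138 genes counted in each library, with earlier results of these data known. All 10 were found, and all 10 were among the 14945 genes that passed the filter on low counts.

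RNA was sequenced from sorted LT-HSCs (long-term haematopoietic stem cells), self-renewing cells at the top of the blood hierarchy, of mice carrying JAK2V617F, Ezh2 deletion or both. JAK2V617F is the activating kinase mutation found in myeloproliferative neoplasms, and Ezh2 is the catalytic subunit of the Polycomb repressive complex that methylates lysine 27 of histone H3. Each of the 35 libraries was made from the total RNA of 1000 sorted cells. Every group, controls included, carried SclCre, a Cre transgene under a stem cell leukaemia (Scl) gene promoter, so its own effect is not measured here.

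The control group was SclCre; Ezh2 +/+ (4 libraries, all from females). The Ezh2-het group was SclCre; Ezh2 +/- (7 libraries, 3 from females), and the Ezh2-null group was SclCre; Ezh2 -/- (4 libraries, 1 from a female). The JAK2-VF group added JAK2V617F to the control genotype (6 libraries, 2 from females), the JAK2-VF Ezh2-het group added it to loss of 1 Ezh2 allele (8 libraries, 5 from females), and the JAK2-VF Ezh2-null group added it to loss of both (6 libraries, 5 from females). The labels give no age and name no animal, so a p-value here reflects only how much libraries of a group differ. An experimental batch is labelled for every library: batch 1 held 14 and batch 2 held 21, and each group was spread over both, with 1 Ezh2-null library in batch 1 and 3 in batch 2.

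MHC class I molecules show peptides from inside a cell to CD8 T cells and natural killer cells. The proteasome cuts proteins into peptides, TAP1 and TAP2 carry these into the endoplasmic reticulum, tapasin (Tapbp) holds the empty heavy chain next to the transporter, and the loaded heavy chain leaves for the surface bound to beta-2-microglobulin (B2m). Interferons raise most genes of the pathway, partly through NLRC5, and replace standard catalytic subunits of the proteasome by PSMB8, PSMB9 and PSMB10.

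Total counts ranged from 13554182 to 48557175 in a library, with a median of 24914541. A part of Ezh2 that the files count on its own made up 0% of Ezh2 counts in all 6 JAK2-VF Ezh2-null libraries and at most 0.478% in the Ezh2-null libraries, against 6.02 to 8.718% in the controls. It ranged from 0 to 9.497% in Ezh2-het and from 4.077 to 8.495% in JAK2-VF Ezh2-het libraries, so the share was not lower in every library labelled heterozygous. A pair of libraries labelled Ezh2-het in batch 1 went against a label: replicate 1 is labelled male but had 394.15 CPM of Xist, and replicate 3 had 0 counts of that part among 831 of Ezh2. Only this pair was left out as doubted. Ezh2-het batch 2 replicates 1 and 3, with shares of 1.738 and 1.774%, and batch 1 replicate 2, with 8.657%, were kept. Without the pair, the averaged JAK2V617F changes described further on were -0.12 for H2-K1, -0.37 for H2-D1, -0.27 for H2-T23, -0.21 for B2m and -0.33 for Tapbp, with the same calls for these genes (edgeR adjusted p 0.0809, 0.00309, 4.36e-05, 0.00134 and 0.000217). Tap2 gained a call without the pair, higher with JAK2V617F, as given further on. Summed over 12 stem cell marker genes, libraries held 3742 to 7439 CPM and none of the 12 was at 0 throughout. The same sum was 807 to 18666 CPM over 13 neutrophil and monocyte genes, 44.2 to 110 over 8 B cell genes, 30.8 to 219 over 11 T and NK cell genes, 118 to 237 over 8 dendritic cell genes, 35.1 to 497 over 8 erythroid genes and 322 to 2293 over 7 megakaryocyte genes.

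The promoters of 8 of the 10 genes were matched in the RefSeq promoter table used here (GRCm38.p6), all but Tap2 and Nlrc5. The 250 bases before the start of 6 of them are printed 5′ to 3′ on the gene's own strand: the 4 genes that were lower with JAK2V617F over all Ezh2 genotypes (H2-D1, H2-T23, B2m and Tapbp), and H2-K1 and Tap1 for comparison. Capitals mark the exact matches to 4 searched motifs on either strand, which did not overlap one another. The motifs were the palindromic kappa-B sequence of the class I enhancer (the capitals that H2-K1 and H2-D1 share and that run to 11 bases), the core of the interferon-stimulated response element (GAAA, any 2 bases, GAAA), the gamma-activated site (TTC, any 3 bases, GAA) and the CCAAT box. For H2-K1 the table has 2 starts, and the window of the first is shown. The windows are chr17:34000348-34000597 (minus strand), chr17:35262844-35263093 (plus), chr17:36032702-36032951 (minus), chr2:122147437-122147686 (plus), chr17:33919228-33919477 (plus) and chr17:34187306-34187555 (plus), in that order.
H2-K1: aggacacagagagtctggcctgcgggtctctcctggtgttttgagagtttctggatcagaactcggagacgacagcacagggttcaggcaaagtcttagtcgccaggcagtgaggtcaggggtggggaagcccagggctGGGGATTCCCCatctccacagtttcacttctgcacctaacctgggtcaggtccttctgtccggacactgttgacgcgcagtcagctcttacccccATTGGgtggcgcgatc
H2-D1: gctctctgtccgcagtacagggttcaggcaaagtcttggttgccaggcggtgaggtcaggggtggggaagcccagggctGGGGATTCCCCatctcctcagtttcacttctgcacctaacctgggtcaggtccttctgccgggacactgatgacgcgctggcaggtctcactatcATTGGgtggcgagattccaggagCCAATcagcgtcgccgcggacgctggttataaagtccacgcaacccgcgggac
H2-T23: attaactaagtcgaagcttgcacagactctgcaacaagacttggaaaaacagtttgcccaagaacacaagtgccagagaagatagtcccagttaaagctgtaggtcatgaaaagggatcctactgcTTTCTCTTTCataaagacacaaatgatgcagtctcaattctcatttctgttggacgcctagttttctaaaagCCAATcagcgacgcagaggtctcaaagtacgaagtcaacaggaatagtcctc
B2m: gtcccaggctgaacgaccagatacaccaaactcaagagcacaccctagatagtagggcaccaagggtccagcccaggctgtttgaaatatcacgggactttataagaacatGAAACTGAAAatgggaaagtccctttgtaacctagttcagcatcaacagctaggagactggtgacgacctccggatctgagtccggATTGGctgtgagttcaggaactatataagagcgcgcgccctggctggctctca
Tapbp: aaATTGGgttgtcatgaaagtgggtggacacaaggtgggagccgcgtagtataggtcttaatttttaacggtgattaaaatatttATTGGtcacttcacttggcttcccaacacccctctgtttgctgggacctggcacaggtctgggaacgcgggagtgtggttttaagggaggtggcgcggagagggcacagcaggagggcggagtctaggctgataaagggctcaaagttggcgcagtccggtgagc
Tap1: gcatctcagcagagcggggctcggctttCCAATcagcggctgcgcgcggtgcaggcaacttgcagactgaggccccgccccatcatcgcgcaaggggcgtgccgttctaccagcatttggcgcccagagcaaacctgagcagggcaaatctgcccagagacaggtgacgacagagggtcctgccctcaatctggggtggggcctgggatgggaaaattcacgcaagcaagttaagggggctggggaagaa

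H2-K1 and H2-D1 both held the kappa-B sequence, 111 and 171 bases before their starts, and it occurred in 10 of the 32851 RefSeq promoters (0.0304%). H2-T23 and B2m held the interferon-response sequence, at 124 and 139 bases before the start, as did 2.98% of all promoters. Only exact matches to this core were searched, so its absence from a window does not exclude a variant of it. Psmb8 held the gamma-activated sequence (7.02% of promoters), and a CCAAT box was present in 7 of the 8, against 33.8% of promoters. The windows of Tap1 and Psmb9 overlap by 225 bases, because these genes start 226 bases apart on opposite strands and share the stretch between them. Psmb9, Tap1, Psmb8 and Tap2 are consecutive protein-coding genes on chromosome 17, which also holds the other members except B2m (chromosome 2) and Nlrc5 (chromosome 8).

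Levels are given as CPM (counts-per-million on TMM-scaled library sizes) within a gene, and as RPKM (CPM per 1000 bases of the deposited gene length) between genes. All 10 genes were expressed in every library, with 1482 counts of Nlrc5 at the least. Averaged over the 35 libraries, B2m stood at 5058 ± 725 RPKM (SD), the second highest of 19138 genes. H2-K1 followed at 2025 ± 401 RPKM (rank 14) and H2-D1 at 1707 ± 676 (rank 19). H2-T23, a non-classical heavy chain (Qa-1) that presents to natural killer cell receptors, was at 525 ± 99.6 RPKM. Psmb8 (356 ± 55.6), Psmb9 (176 ± 28.1), Tapbp (168 ± 27.3), Tap2 (148 ± 27.6) and Tap1 (82.2 ± 17.3) came next, and Nlrc5 was last at 18.2 ± 4.89 RPKM (rank 4838).

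This order held in all 35 libraries for B2m above H2-K1, H2-D1 above H2-T23, H2-T23 above Psmb8, Psmb8 above Psmb9 and Tap1 above Nlrc5. H2-K1 exceeded H2-D1 in 28 of 35 libraries, Psmb9 exceeded Tapbp in 22, Tapbp exceeded Tap2 in 23 and Tap2 exceeded Tap1 in 34, so Psmb9, Tapbp and Tap2 were not separated beyond their spread. H2-D1 varied most, 4.15-fold between its lowest and highest library (1318 to 5471 CPM), and Psmb8 least, 1.84-fold (331 to 610 CPM). Reads of the heavy chains are the least certain: 12.8% of the 50-base windows of H2-D1, 13.6% of those of H2-T23 and 9.63% of those of H2-K1 also occur in another gene of the annotation, against 0% for B2m, Nlrc5 and Psmb9.

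**Figure D1:**
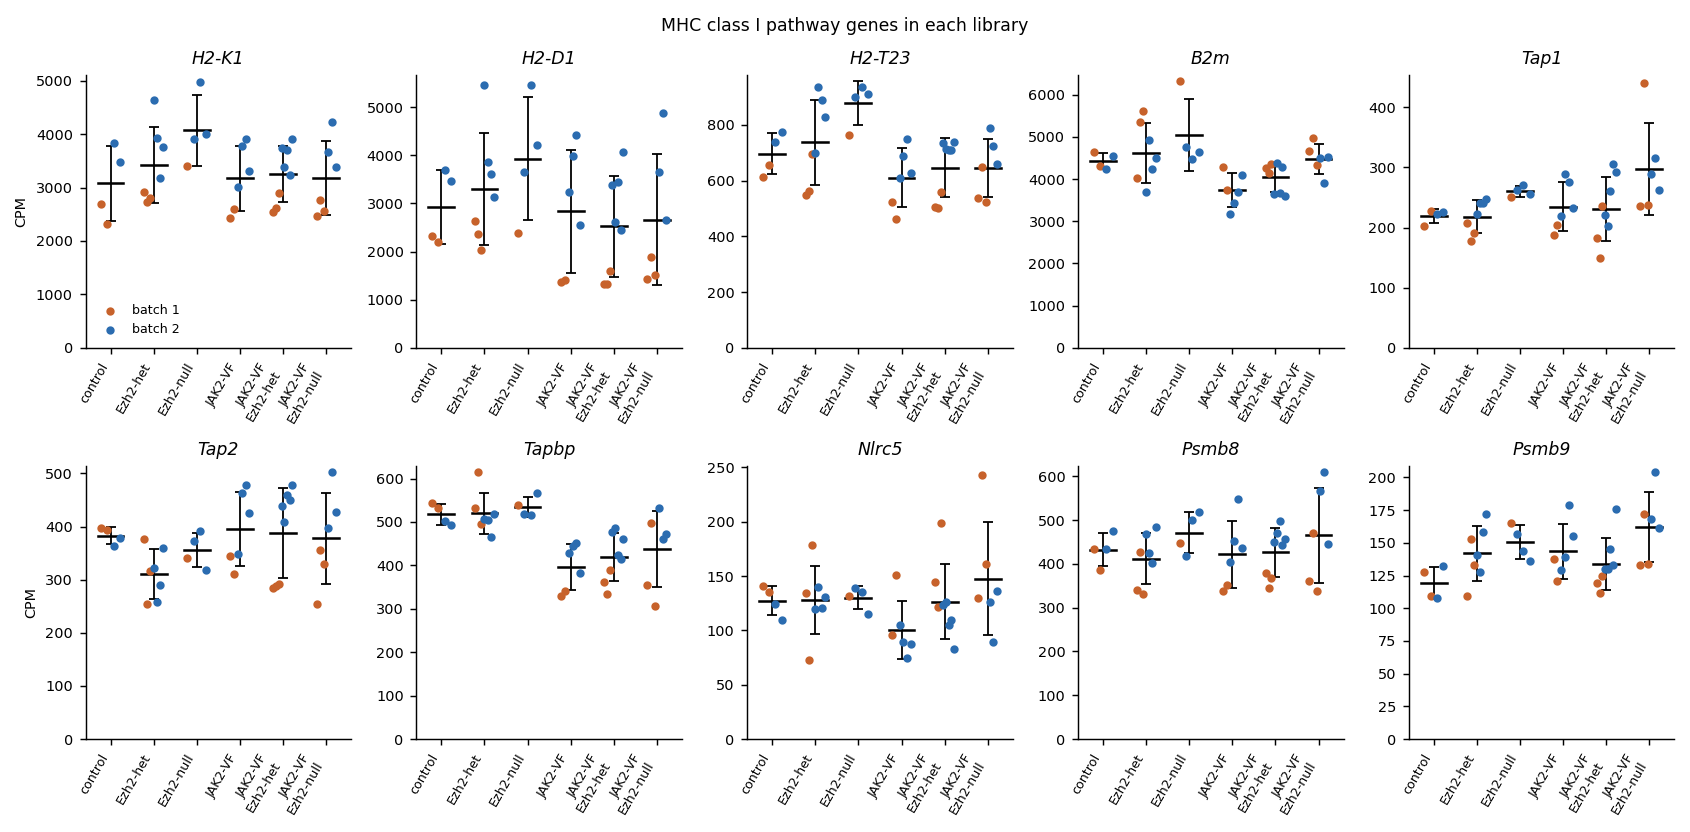
CPM of each of the 10 genes (vertical axes, linear from 0) in the 6 genotype groups (horizontal axes). Each point is a library, coloured by batch, and bars are the group mean ± SD. For H2-D1 the batch 1 libraries of each group lie below its batch 2 libraries, and all 6 JAK2-VF libraries lie below all 4 controls for Tapbp.

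Batch moved most of these genes. In the fit to all libraries, batch 2 differed from batch 1 at an adjusted p under 0.05 for 7 of the 10 genes, against 28% of all genes. H2-D1 was higher in batch 2 by 1.0 ± 0.094 (log2, SE, edgeR adjusted p 5.55e-10), H2-K1 by 0.46 ± 0.05, H2-T23 by 0.40 ± 0.049, Psmb8 by 0.30 ± 0.056 and Tap2 by 0.27 ± 0.075, while B2m (-0.16 ± 0.05) and Nlrc5 (-0.28 ± 0.098) were lower. None of the 10 was called for sex in that fit (edgeR; 0.0335% of all genes called). The largest difference by sex was that of Nlrc5, lower in males by 0.32 ± 0.11 (edgeR adjusted p 0.441). All edgeR tests of genotype carry terms for both.

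With JAK2V617F, a part of the pathway was lower. Averaged over the 3 Ezh2 genotypes, H2-D1, H2-T23, B2m and Tapbp were lower with JAK2V617F, by 0.20 to 0.39 on the log2 scale, and no gene of the 10 was called higher. The 4 genes called of 10 compare with 25.3% of all genes called in either direction and 12.4% called lower in this contrast (12.8% higher). The median log2 change was -0.11 for the 10 genes and -0.0092 for all genes tested. The transporter genes Tap1 and Tap2 and the proteasome subunits Psmb8 and Psmb9 were not called, at -0.0037 to 0.13. This average was computed after the single comparisons had been seen, and each single comparison called fewer of these genes, as given for each gene.

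H2-D1, a classical class I heavy chain, was at 2331, 2191, 3697 and 3465 CPM in the 4 controls, the first pair in batch 1. The 6 JAK2-VF libraries ran from 1376 to 4413 CPM (median 2901), the 7 Ezh2-het libraries from 2034 to 5471 (median 3130) and the 8 JAK2-VF Ezh2-het libraries from 1318 to 4070 (median 2524). The 4 Ezh2-null libraries were at 2383, 3662, 5467 and 4214 CPM, and the 6 JAK2-VF Ezh2-null libraries ran from 1426 to 4873 (median 2271). Across batches these ranges overlap. Within batch 1 they do not: all 8 libraries with JAK2V617F (1318 to 1893 CPM) lay below all 6 without it (2034 to 2630), a separation that 1.51% of all genes showed in that direction. In batch 2, 4 of 12 libraries with JAK2V617F lay below all 9 without.

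The averaged change of H2-D1 was -0.39 ± 0.089 (log2, SE, 95% interval -0.57 to -0.21, edgeR adjusted p 0.00122). It was -0.43 ± 0.18 in JAK2-VF against control (adjusted p 0.187; -0.59 and 0.0354 with the replicate number as a block), -0.46 ± 0.13 in JAK2-VF Ezh2-het against Ezh2-het (adjusted p 0.0236) and -0.28 ± 0.17 in JAK2-VF Ezh2-null against Ezh2-null (adjusted p 0.422). Batch 1 alone gave an average of -0.63 (adjusted p 0.00873) and batch 2 alone -0.22 (adjusted p 0.322). This difference between batches was not tested. The call in Ezh2-het cells was lost without the pair of doubted libraries, and also without JAK2-VF Ezh2-het batch 1 replicate 2, JAK2-VF Ezh2-het batch 2 replicate 4 or Ezh2-het batch 2 replicate 1 (adjusted p up to 0.123).

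**Figure D2:**
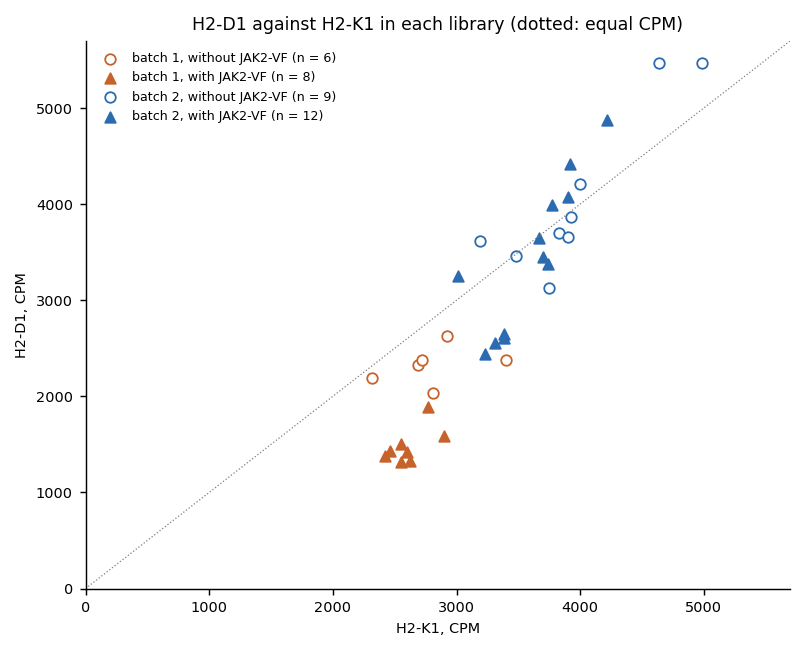
CPM of H2-D1 (vertical axis) against CPM of H2-K1 (horizontal axis), both linear from 0, in each of the 35 libraries. Open circles are libraries without and filled triangles libraries with JAK2V617F, coloured by batch, and the dotted line marks equal CPM. In batch 1 the 8 triangles sit at 1318 to 1893 CPM of H2-D1, below the 6 circles at 2034 to 2630, while their H2-K1 ranges overlap.

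H2-K1, the other classical heavy chain, shares the kappa-B sequence with H2-D1. Its controls were at 2687, 2319, 3832 and 3482 CPM, and the JAK2-VF libraries ran from 2422 to 3917 (median 3161). In batch 1, libraries with JAK2V617F held 2422 to 2895 CPM and those without 2319 to 3402, so none lay outside on the low side. The averaged change was -0.13 ± 0.048 (95% interval -0.22 to -0.027, edgeR adjusted p 0.0543) and did not pass. It lay close to the threshold: 12 of 47 alternatives called it lower, among them DESeq2 (adjusted p 0.0309), DESeq2 size factors (0.036) and the fit without a sex term (0.0491). The strongest single value was -0.23 ± 0.095 in Ezh2-null cells (adjusted p 0.162).

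H2-T23 was at 613, 658, 740 and 774 CPM in the controls and 462 to 750 (median 619) in the JAK2-VF libraries. The Ezh2-null libraries were at 765, 902, 937 and 912 CPM, and the JAK2-VF Ezh2-null libraries ran from 522 to 788 (median 653). In the latter pair, 5 of 6 libraries with JAK2V617F lay below every library without. All 6 libraries with JAK2V617F held 522 to 648 CPM against 765 in batch 1, and 659 to 788 against 902 to 937 in batch 2. Ezh2-het libraries ran from 549 to 938 CPM (median 699) and JAK2-VF Ezh2-het libraries from 501 to 740 (median 710).

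The averaged change of H2-T23 was -0.28 ± 0.047 (95% interval -0.37 to -0.18, edgeR adjusted p 3.44e-05). Of the 4 lower genes it was the one whose averaged call held in batch 1 alone (-0.42, adjusted p 0.0373), in batch 2 alone (-0.25, adjusted p 0.00766) and in females alone (-0.31, adjusted p 0.0121). The change was -0.26 ± 0.094 against control (adjusted p 0.111), -0.21 ± 0.071 in Ezh2-het cells (adjusted p 0.0556; -0.20 and 0.104 without the doubted pair) and -0.35 ± 0.093 in Ezh2-null cells (adjusted p 0.0197). H2-T23 was the only 1 of the 10 genes called in this last comparison, which called 4.84% of all genes, and 1.97% lower. The call did not survive leaving out Ezh2-null batch 1 replicate 1 or JAK2-VF Ezh2-null batch 2 replicate 2 (adjusted p up to 0.0668), and when only these groups were fitted. In Ezh2-het cells, 9 of 47 alternatives called H2-T23 lower, among them DESeq2 and the fit without a sex term.

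B2m, the light chain shared by all class I molecules, was at 4629, 4318, 4239 and 4549 CPM in the controls and 3172 to 4296 (median 3725) in the JAK2-VF libraries, 5 of 6 of which lay below every control. Ezh2-het libraries ran from 3693 to 5606 CPM (median 4507) and JAK2-VF Ezh2-het libraries from 3608 to 4379 (median 4205). The Ezh2-null libraries held 6319, 4766, 4478 and 4630 CPM, the first in batch 1, and the JAK2-VF Ezh2-null libraries 3911 to 4973 (median 4506). The averaged change was -0.20 ± 0.049 (95% interval -0.30 to -0.10, edgeR adjusted p 0.00219). The 3 single values were alike, -0.22 ± 0.098, -0.18 ± 0.074 and -0.21 ± 0.097 in Ezh2-intact, Ezh2-het and Ezh2-null cells, and none passed by itself (adjusted p 0.221, 0.126 and 0.246). Without the doubted pair the Ezh2-het value was -0.18 (adjusted p 0.148), and without Ezh2-null batch 1 replicate 1 the Ezh2-null value was -0.13. The averaged call was lost in batch 1 alone (-0.34, adjusted p 0.0746), batch 2 alone (-0.18, adjusted p 0.0593) and females alone (-0.18, adjusted p 0.113).

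Tapbp, whose product tapasin bridges the heavy chain to the transporter, was at 544, 532, 502 and 493 CPM in the controls. The 6 JAK2-VF libraries were at 330 to 451 CPM (median 406), all below every control. Tapbp was the only 1 of the 10 genes whose libraries all lay below in that comparison, as 2.77% of all genes did, and the only 1 called (-0.47 ± 0.12, edgeR adjusted p 0.0192), where 4.22% of all genes were called and 1.83% were called lower. In Ezh2-het cells it fell by 0.31 ± 0.092 (edgeR adjusted p 0.0253). The 8 libraries with JAK2V617F ran from 333 to 487 CPM, and 6 of them lay below all 7 without it (466 to 614). H2-D1 and Tapbp were the 2 of 10 genes called in that comparison, against 9.05% of all genes, and 4.18% called lower. In Ezh2-null cells the libraries held 538, 519, 515 and 566 CPM, and with JAK2V617F 307 to 532 (median 466), a change of -0.22 ± 0.12 (adjusted p 0.333).

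The averaged change of Tapbp was -0.33 ± 0.061 (95% interval -0.46 to -0.21, edgeR adjusted p 7.27e-05). It was larger in batch 1 alone (-0.58, adjusted p 0.0397) than in batch 2 alone (-0.16, adjusted p 0.0685), a difference that was not tested, and females alone gave -0.31 (adjusted p 0.0525). Against control, the call was lost without control batch 1 replicate 1 or 2 or JAK2-VF batch 1 replicate 1 or 2 (adjusted p up to 0.0915). In Ezh2-het cells it was lost with the replicate number as a block (adjusted p 0.0564), with limma-voom (0.058) and without the doubted pair (0.0874), and without Ezh2-het batch 1 replicate 2 or 3, JAK2-VF Ezh2-het batch 1 replicate 2 or JAK2-VF Ezh2-het batch 2 replicate 4 (adjusted p up to 0.0906).

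The transporter genes did not follow. Tap1 was at 202, 227, 222 and 226 CPM in the controls and 187 to 289 (median 227) in the JAK2-VF libraries, and its averaged change was 0.13 ± 0.079 (95% interval -0.036 to 0.29, edgeR adjusted p 0.269). Tap2 was at 397, 393, 363 and 379 CPM in the controls and 310 to 479 (median 387) in the JAK2-VF libraries, and its averaged change was 0.13 ± 0.073 (95% interval -0.016 to 0.28, adjusted p 0.195). The change of Tap2 went opposite ways in the batches, a difference that was not tested. In batch 2, the 12 libraries with JAK2V617F held 349 to 502 CPM, and 11 of them lay above all 9 without (258 to 392). The averaged change in batch 2 was 0.33 (edgeR adjusted p 0.00581). In batch 1 the ranges were 255 to 355 CPM with and 255 to 397 without, and the change was -0.17 (adjusted p 0.601). Without the doubted pair the averaged change of Tap2 over both batches was 0.18 (adjusted p 0.0458).

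Psmb8 and Psmb9, the inducible subunits that replace PSMB5 and PSMB6 in the proteasome core, changed by -0.0037 ± 0.055 (95% interval -0.12 to 0.11) and 0.093 ± 0.066 (95% interval -0.041 to 0.23) on average with JAK2V617F (edgeR adjusted p 0.977 and 0.332). Psmb8 was at 435, 386, 434 and 476 CPM in the controls and 338 to 549 (median 421) in the JAK2-VF libraries. Nlrc5, the activator of class I transcription, was at 141, 135, 124 and 110 CPM in the controls and 74.9 to 151 (median 92.5) in JAK2-VF libraries, 5 of 6 of them below every control. Its averaged change was -0.10 ± 0.095 (95% interval -0.29 to 0.092, adjusted p 0.489). In batch 2, 8 of 12 libraries with JAK2V617F lay below all 9 without, and in batch 1 none of 8 did.

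**Figure D3:**
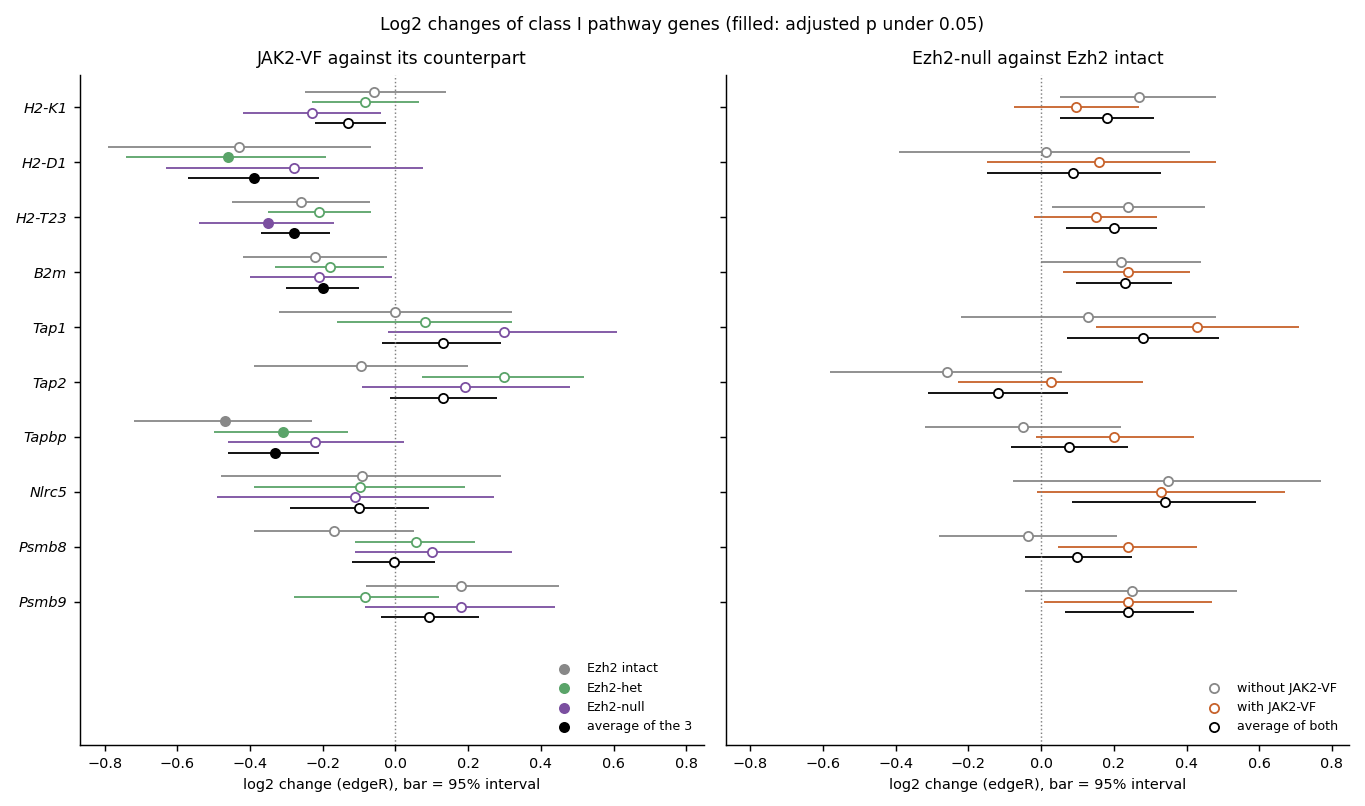
Log2 changes (horizontal axes, edgeR) of the 10 genes (vertical axis) for JAK2V617F in each Ezh2 genotype and averaged (left), and for Ezh2-null against Ezh2-intact cells without and with JAK2V617F and averaged (right). Bars are 95% intervals, and filled points passed an adjusted p of 0.05. Filled averages on the left are H2-D1 (-0.39), H2-T23 (-0.28), B2m (-0.20) and Tapbp (-0.33), and no point is filled on the right.

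Some marker genes of the sorted cells and of other cells also moved with JAK2V617F. The 12 stem cell markers summed to 5265 to 6254 CPM in controls, 5376 to 7439 in Ezh2-het and 6053 to 6999 in Ezh2-null libraries, against 3742 to 5409, 3922 to 5495 and 3935 to 4715 CPM with JAK2V617F, and 9 of 12 fell and 1 rose in the averaged contrast. The 13 neutrophil and monocyte markers reached 8071 CPM at most without JAK2V617F and 18666 with it, and none of the 13 passed. Of 8 erythroid markers 5 fell and 1 rose (median -3.02), of 7 dendritic cell markers tested 2 fell, of 6 T and NK cell markers 2 rose, of 7 B cell markers 1 fell and of 7 megakaryocyte markers 1 rose. In this contrast 12.4% of all genes were called lower and 12.8% higher, and the B cell and megakaryocyte counts lie near those shares. The part of these shifts in the changes of the class I genes was not tested. In RNA from pooled cells, fewer cells of a type and less RNA per cell cannot be told apart.

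Loss of Ezh2 on its own changed none of the 10 genes past the threshold. Ezh2-null against control called 0 of 10 genes with edgeR, where 0.00669% of all genes were called, and 0 with DESeq2 and with limma-voom. At an unadjusted p under 0.05 there were 2 of 10, against 5.96% of all genes. The median log2 change was 0.17 for the 10 genes and -0.011 for all genes. Tap1 was at 251, 263, 271 and 256 CPM in the Ezh2-null libraries, all above the 202 to 227 of the controls. Psmb9 was at 165, 157, 144 and 136 CPM against 128, 109, 108 and 132. These were the 2 of 10 genes with every library higher, which 1.43% of all genes showed. The fitted changes, which take batch and sex into account, were 0.13 ± 0.17 for Tap1 (edgeR adjusted p 1.0) and 0.25 ± 0.14 for Psmb9 (adjusted p 0.909; 0.16 without Ezh2-null batch 1 replicate 1), and all 4 controls but 1 of the 4 Ezh2-null libraries came from females. The genes at an unadjusted p under 0.05 were H2-K1 (0.27 ± 0.11, adjusted p 0.782) and H2-T23 (0.24 ± 0.10, adjusted p 0.805).

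With JAK2V617F present, loss of Ezh2 left all 10 genes on the positive side, from 0.027 (Tap2) to 0.43 (Tap1), with a median of 0.22 against 0.0052 for all genes, of which 50.9% were positive. None was called by edgeR, DESeq2 or limma-voom in JAK2-VF Ezh2-null against JAK2-VF, where 0.475% of all genes were called. At an unadjusted p under 0.05 there were 4, against 7.13% of all genes. Tap1 ran from 236 to 440 CPM (median 276) in JAK2-VF Ezh2-null and from 187 to 289 (median 227) in JAK2-VF libraries, a difference of 0.43 ± 0.14 (edgeR adjusted p 0.249). Without JAK2-VF Ezh2-null batch 1 replicate 2, which held the 440 CPM, it was 0.26. B2m ran from 3911 to 4973 CPM in the 6 JAK2-VF Ezh2-null libraries, 5 of them above every JAK2-VF library (3172 to 4296). Its difference of 0.24 ± 0.087 had an edgeR adjusted p of 0.374. Psmb8 and Psmb9 each differed by 0.24 (± 0.096 and ± 0.11, adjusted p 0.458 and 0.683). Nlrc5 differed by 0.33 ± 0.17 (adjusted p 0.73), and by 0.19 without the same JAK2-VF Ezh2-null library.

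Averaged over cells with and without JAK2V617F, the Ezh2-null effect was positive for 9 of 10 genes and called for 0 (edgeR, where 0.408% of all genes were called), with 6 at an unadjusted p under 0.05, against 7.82% of all genes. DESeq2 called 1, B2m (adjusted p 0.0495), and limma-voom 0, and their shares over all genes were not kept. The edgeR values were 0.23 ± 0.065 for B2m (adjusted p 0.167), 0.20 ± 0.062 for H2-T23 (0.249), 0.18 ± 0.064 for H2-K1 (0.344), 0.24 ± 0.086 for Psmb9 (0.352), 0.34 ± 0.12 for Nlrc5 (0.382) and 0.28 ± 0.10 for Tap1 (0.383; 0.18 without JAK2-VF Ezh2-null batch 1 replicate 2). Tap2 stood apart at -0.12 ± 0.095. The difference between the Ezh2-null effects with and without JAK2V617F, which is also the difference between the JAK2V617F effects with and without Ezh2, was called for 0 of 10 genes (edgeR; 0 with DESeq2 and limma-voom), and for 0.00669% of all genes. At an unadjusted p under 0.05 there were 0 of 10, against 5.41% of all genes. Its intervals were wide, -0.18 to 0.78 for Tap1 and -0.39 to 0.69 for H2-D1.

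Heterozygous loss of Ezh2 called 0 of 10 genes in either background with edgeR, DESeq2 and limma-voom, and 0% of all genes with edgeR. Against control, Tap2 was the 1 gene at an unadjusted p under 0.05, against 5.17% of all genes (-0.39 ± 0.14, edgeR adjusted p 0.901, and -0.54 and 0.485 without the doubted pair). The 7 Ezh2-het libraries ran from 255 to 377 CPM of Tap2, and 6 of them lay below every control. Against JAK2-VF, JAK2-VF Ezh2-het had 0 of the 10 at an unadjusted p under 0.05, against 3.87% of all genes, and Tap2 differed by 0.0063 ± 0.11. JAK2-VF Ezh2-null against JAK2-VF Ezh2-het called 0 of 10 genes (edgeR, where 0.455% of all genes were called; 0 with DESeq2 and limma-voom) and held 3 at an unadjusted p under 0.05, against 8.29% of all genes, with Tap1 at 0.43 ± 0.12 (adjusted p 0.153; 0.25 without JAK2-VF Ezh2-null batch 1 replicate 2) and Psmb9 at 0.31 ± 0.10 (adjusted p 0.254).

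Cells with both lesions were also set against control. Psmb9 was higher, at 133 to 204 CPM (median 164) in the JAK2-VF Ezh2-null libraries against 128, 109, 108 and 132 in the controls (0.42 ± 0.12, edgeR adjusted p 0.0355). It was the 1 of 10 genes called, where 5.48% of all genes were called, and 3.14% were called higher. All 6 libraries lay above every control for Psmb9 and also for Tap1 (236 to 440 CPM), as for 4.19% of all genes, and Tap1 differed by 0.43 ± 0.15 (adjusted p 0.0831), and by 0.23 without JAK2-VF Ezh2-null batch 1 replicate 2. The Psmb9 call was lost without any 1 of control batch 1 replicate 2, control batch 2 replicate 2, control batch 2 replicate 4, JAK2-VF Ezh2-null batch 1 replicate 2, JAK2-VF Ezh2-null batch 2 replicate 1 or JAK2-VF Ezh2-null batch 2 replicate 2 (adjusted p up to 0.143). In these cells B2m, which was lower on average with JAK2V617F, stood at 0.013 ± 0.092 against control (95% interval -0.17 to 0.20). This comparison shares its libraries with those above.

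The balance of inducible and standard proteasome subunits was followed as the ratio of their counts per base in each library, without terms for batch or sex, in 4 comparisons for each of 3 subunit pairs (12 exact two-sided permutation tests). The ratio of Psmb10 to Psmb7 was 2.44 ± 0.467 (SD, n = 4) in controls and 1.63 ± 0.201 (n = 6) in JAK2-VF libraries, all 6 below every control (difference -0.57 on the log2 scale, exact p 0.00476, adjusted p 0.0286). It was 2.74 ± 0.505 (n = 4) in Ezh2-null and 1.66 ± 0.181 (n = 6) in JAK2-VF Ezh2-null libraries, again without overlap (-0.71, exact p 0.00476, adjusted p 0.0286). That p is the smallest that 6 against 4 libraries can give. Within batches 1 and 2 the differences were -0.85 and -0.32 in the first comparison and -0.97 and -0.62 in the second. Psmb10 itself differed by -0.012 ± 0.067 on average with JAK2V617F (edgeR adjusted p 0.932), while Psmb7, the standard subunit that PSMB10 replaces, rose by 0.53 ± 0.070 (adjusted p 4.29e-07).

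The ratio of Psmb9 to Psmb6 was 0.672 ± 0.0577 (SD, n = 6) in JAK2-VF and 0.800 ± 0.0885 (n = 6) in JAK2-VF Ezh2-null libraries (0.25 on the log2 scale, exact p 0.0216, adjusted p 0.0866). It was 0.627 ± 0.11 (n = 4) in controls and 0.795 ± 0.0771 (n = 4) in Ezh2-null libraries (0.35, exact p 0.0857, adjusted p 0.206). The ratio of Psmb8 to Psmb5 was 5.05 ± 0.455 in controls and 4.37 ± 0.803 in JAK2-VF libraries (-0.22, exact p 0.152, adjusted p 0.305). None of these passed after adjustment.

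**Figure D4:**
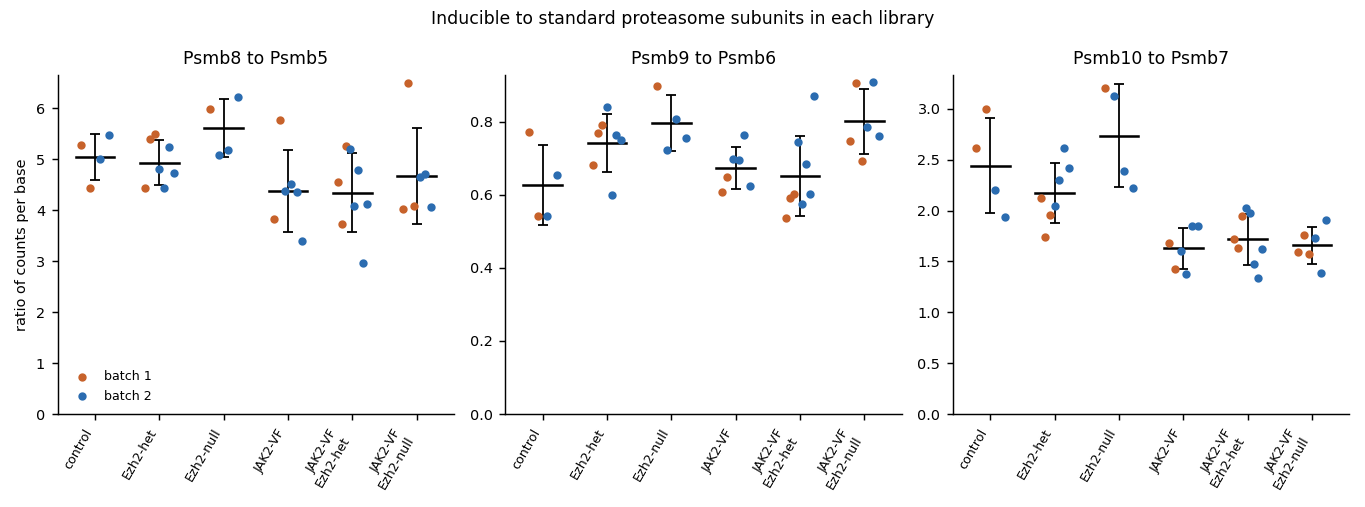
Ratio of the counts per base of an inducible to its standard proteasome subunit (vertical axes, linear from 0) in the 6 groups (horizontal axes). Points are libraries coloured by batch, and bars are the group mean ± SD. For Psmb10 to Psmb7, the JAK2-VF libraries (mean 1.63) lie below the controls (mean 2.44), and the JAK2-VF Ezh2-null libraries (mean 1.66) below the Ezh2-null libraries (mean 2.74).

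Other genes of the pathway, from lists written with earlier results of these data known, were followed in the same averaged JAK2V617F contrast. In that contrast 12.8% of all genes were called higher and 12.4% lower, 25.3% in all. Of 14 standard proteasome core genes, 11 rose and none fell (median 0.23), led by Psmb7, Psma1 (0.38 ± 0.061), Psma4 (0.28 ± 0.059) and Psma5 (0.36 ± 0.080). Of 14 other immunoproteasome and peptide loading genes, 4 rose and 3 fell. The loading chaperones calnexin (Canx, 0.26 ± 0.050) and ERp57 (Pdia3, 0.26 ± 0.076) rose, whereas Tapbpl, a tapasin-related peptide editor, fell by 0.56 ± 0.086 and Npepps, a cytosolic peptide-trimming aminopeptidase, by 0.27 ± 0.072. Of the 17 other class I heavy chains tested, Fcgrt, the neonatal Fc receptor (-0.53 ± 0.10), and H2-T3 (-1.35 ± 0.32) fell and none rose (median -0.15), a share near that of all genes called lower.

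Of 24 genes of class I transcription and interferon signalling, 3 rose and 7 fell with JAK2V617F (median -0.11), beside the 12.8% and 12.4% of all genes. Nfkb1, the p50 subunit that binds kappa-B sequences (0.55 ± 0.068), and Irf1 (0.50 ± 0.11) rose, and Irf2 (-0.27 ± 0.055) and Ifngr1, an interferon gamma receptor chain (-0.32 ± 0.061), fell. Of 39 interferon-stimulated genes outside the pathway, 3 rose and 9 fell (median -0.13), where 12.8% of all genes were called higher and 12.4% lower. Taken in either direction, the count is near the 25.3% of all genes, while the share that fell was above that of all genes. Ifi27 (0.54 ± 0.097) was higher, and Ifit1 (-0.84 ± 0.16), Rsad2 (-0.58 ± 0.15) and Trim30a (-0.28 ± 0.070) were lower. Of 11 MHC class II genes, which show peptides to CD4 T cells, 6 fell and 1 rose (median -0.36), H2-DMb1 by -0.36 ± 0.067, the invariant chain Cd74 by -0.87 ± 0.20 and H2-Ab1 by -0.57 ± 0.15.

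For Ezh2 loss averaged over both backgrounds, 15 of the 39 interferon-stimulated genes rose and none fell (median 0.61), where 0.335% of all genes were called higher, among them Gbp3 (0.86 ± 0.11) and Ifit1 (1.45 ± 0.22). The median over the 10 class I genes was 0.19, with none called. None of the 17 other heavy chains (median 0.23), 14 other immunoproteasome and loading genes (median -0.021), 14 standard proteasome genes (median -0.039), 24 transcription and signalling genes (median 0.037) or 11 class II genes (median 0.025) was called (edgeR). Among the smallest p-values were those of H2-M3 (0.39 ± 0.11, adjusted p 0.127) among heavy chains and of Irf7 (0.83 ± 0.20, adjusted p 0.0584) among signalling genes.

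The 10 genes were not one block across libraries. Over the 45 pairs, the Pearson correlation of log2 CPM across the 35 libraries had a median of 0.409 and ran from -0.437 to 0.91, as a description of libraries that share batch and genotype. H2-K1 and H2-D1 were the closest (0.91), and H2-T23 followed with H2-D1 (0.809) and H2-K1 (0.783). As measured, B2m and Nlrc5 did not follow the mean of the other 9 genes (-0.038 and -0.284), whereas H2-T23 (0.83), Psmb8 (0.79) and H2-K1 (0.786) did. With batch means removed, B2m with H2-T23 was the closest of the 45 pairs (0.735, against 0.168 as measured), and of the 9 pairs with B2m only that with Tap2 was negative (-0.291). With the means of group, batch and sex removed, the median over pairs was 0.305, and the closest pairs were H2-K1 with H2-D1, at 0.697, Psmb8 with Psmb9, at 0.624, and Psmb8 with Tapbp, at 0.619.

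**Figure D5:**
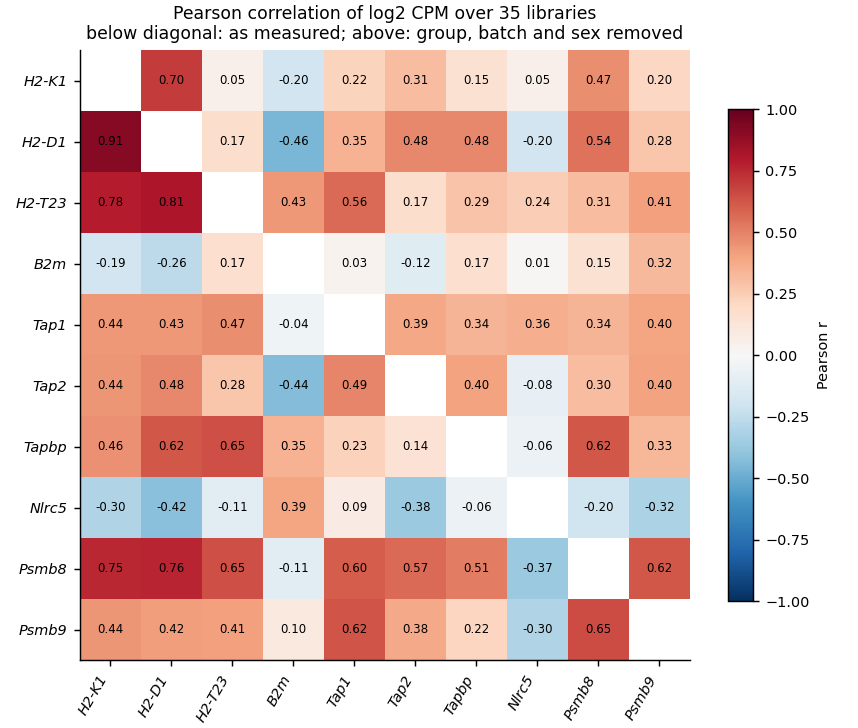
Pearson correlation of log2 CPM between the 10 genes over 35 libraries, as measured (below the diagonal) and after removing group, batch and sex (above). Red is positive and blue negative. H2-K1 with H2-D1 is the highest as measured (0.91), and every blue cell is a pair with B2m or Nlrc5.

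Among 9585 other genes of sufficient level, those whose log2 CPM lay closest to the mean of the 10 over the 35 libraries were Ly6e (Pearson 0.877), H2-T22 (0.821), H2-Q7, Ccnd3 and H2-Q9 (0.816 each), Dbnl (0.811), R3hdm4 (0.807) and Ltb (0.801). H2-Q7 and H2-Q9 differed by at most 0.51% in any library and cannot be told apart in these counts. With batch means removed the closest genes included Irf7 (0.784), Ly6e (0.772), Ube2l6 (0.763), Xaf1 (0.709), Tgtp2 (0.708), Zbp1 (0.703) and Gbp6 (0.68). Of single genes, as measured, H2-D1 lay closest to Shfl (0.927), H2-T23 to Ltb (0.856), Tapbp to Smtnl1 (0.831), Psmb8 to Atp5d (0.82), B2m to Spire1 (0.79), Tap2 to Muc13 (0.782), Nlrc5 to Arhgap29 (0.751), Psmb9 to Pih1d1 (0.747) and Tap1 to Tgtp1 (0.722), and only H2-K1 had another of the 10, H2-D1, as its closest. Batch means were not removed for these single-gene values, so they include differences shared between batches.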

How the data were processed

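Total RNA of 1000 sorted LT-HSCs per library was prepared with a SMARTer low-input kit, per the labels' protocols. The deposited values are raw counts per Entrez gene with a gene length in bases, and a separate entry for part of Ezh2, left out of library sizes and tests. Per the submitters' processing notes STAR and build mm9 were used; the version, counter, annotation and use of strand are not stated in these sources. Gene symbols, from a table of another build, matched 19075 of 19138 genes.

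The labels gave group, batch, sex and replicate number. Counts were fitted with edgeR 4.0.16 (R 4.3.3; TMM factors 0.937 to 1.06, low-count filter, robust quasi-likelihood test, group, batch and sex, all 35 libraries, 27 residual degrees of freedom). A call means a Benjamini-Hochberg adjusted p below 0.05 over the 14945 genes tested in a comparison, and 4193 were filtered out. The SE is the absolute log2 change over the square root of F. Log2 CPM used a prior count of 2. Genes are missing from lists where unmatched or filtered. Named were all 10 genes, of other lists up to 4 called genes with the smallest adjusted p or up to 2 with the smallest p where none was called, and the 8 genes most like the mean of the 10 whose mean log2 CPM was 3 or more, without predicted, RIKEN and Y-linked genes; Psmb10 is given as part of a ratio. A gene that this rule names is not reported here. The members and lists were chosen with earlier results of these data known, and both averaged contrasts were added after the single comparisons were seen.

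Alternatives were DESeq2 1.42.0 and its size factors, limma-voom 3.58.1, no filter, no sex term, no robust moderation (added after seeing the data), a replicate block, the compared groups only, each batch, females, without the doubted pair, and without each library. The procedure was tested on simulated data. Promoters are RefSeq, GRCm38.p6, and shared windows GENCODE vM21, both for sequence only. Figures used Python 3.11.15 and matplotlib 3.10.9.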

Additional observations from a re-analysis of the deposited data

Results flagged for a closer look

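Gaps between the highest or lowest library and the rest were examined in 78 sets of libraries of 1 group, and 2 were wide enough to stand out, where chance marks about 1 in 20. B2m in the Ezh2-null group was at 6319 CPM in batch 1 replicate 1, the only library of that group in batch 1, against 4766 CPM in the next library and 4478 in the lowest. The ratio of Psmb8 to Psmb5 in the JAK2-VF Ezh2-null group was 6.49 in batch 1 replicate 2, against 4.71 in the next library and 4.02 in the lowest. The latter library also held the highest Tap1 (440 CPM) and Nlrc5 (243 CPM) of all 35 libraries.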

How the results depend on the processing

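Of 5640 values of single genes (10 genes, 12 comparisons, 47 alternatives), 5563 kept their side of the threshold, 46 lost a call, 31 gained 1 and 0 called values changed sign. Counts of genes called changed as follows, and the shares of all genes called under these alternatives were not kept. In JAK2-VF against control the count was 2 with the replicate block (H2-D1 gained, adjusted p 0.0354), 0 in batch 1, batch 2 or females alone, and 0 to 1 without single libraries. In JAK2-VF Ezh2-null against Ezh2-null it was 0 with the compared groups only, in each batch and in females alone, and 0 to 1 without single libraries. In JAK2-VF Ezh2-het against Ezh2-het it was 0 with limma-voom and in females alone, 1 with the replicate block (H2-D1), 1 in batch 1 alone (H2-D1), 1 in batch 2 alone (Tap2, higher), 1 without the doubted pair (Tap2), and 0 to 5 without single libraries, 5 without Ezh2-het batch 1 replicate 1. The count rose there with DESeq2, with DESeq2 size factors and without a sex term (H2-T23 gained). In JAK2-VF Ezh2-null against control it was 0 with the compared groups only, in each batch and in females alone, and 0 to 1 without single libraries. For JAK2V617F averaged, 4 in the test reported, it was 5 with DESeq2, with DESeq2 size factors and without a sex term (H2-K1 gained), 5 without the doubted pair (Tap2 gained), 3 in batch 1 alone (B2m lost), 4 to 5 without single libraries, 2 in batch 2 alone (H2-T23 lower, Tap2 higher) and 2 in females alone (H2-D1, H2-T23), and for averaged Ezh2 loss 1 with DESeq2 (B2m). The ratio of Psmb10 to Psmb7 missed the threshold within batches, where few libraries allow no small p (-0.85 and -0.32 in JAK2-VF against control, -0.97 and -0.62 in JAK2-VF Ezh2-null against Ezh2-null), and without single libraries ranged from -0.67 to -0.46 and -0.81 to -0.63. Without single libraries the Psmb8 to Psmb5 ratio in JAK2-VF Ezh2-null against Ezh2-null ranged from -0.38 to -0.23 (passing without JAK2-VF Ezh2-null batch 1 replicate 2) and the Psmb9 to Psmb6 ratio in JAK2-VF Ezh2-null against JAK2-VF from 0.21 to 0.29 (passing without JAK2-VF Ezh2-null batch 1 replicate 3 or JAK2-VF batch 2 replicate 3). The labels do not say whether replicate numbers pair libraries. Residuals of libraries with the same batch and number correlated with a median of -0.02 (9 of 69 pairs over 0.1, highest 0.516). For another number in the same batch the median was -0.049 (36 of 192 pairs over 0.1, highest 0.38). These values do not settle whether some libraries were paired. The block changed the counts of no other comparison by over 1.5 times. A group left with 1 library in a batch is assumed to vary like the others. Each of the 10 genes had at least 1482 counts in every library.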
